A study of Mus musculus with 4 samples.

Results

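The genes described here are 10 genes of the neuronal cytoskeleton and growth cone: the neurofilament genes Nefl, Nefm, Nefh and Ina, the tubulin gene Tubb3, the microtubule regulators Mapt, Dcx and Stmn2, and the growth cone genes Gap43 and Crmp1. They were chosen by name, as 10 of the 32285 genes listed in each count matrix. Their unique molecular identifier (UMI) counts were read in single-cell RNA libraries of the mouse cerebellum at embryonic stage E14.5, from cells sorted by FACS for the red reporter tdTomato. All embryos carried Atoh1-Cre/+ and the R26LSL-tdT/+ reporter, so that Cre, driven by Atoh1, labels the rhombic lip lineage that gives rise to granule cells, unipolar brush cells and the excitatory neurons of the cerebellar nuclei. The 2 control libraries carried nothing more. The 2 En1/2 CKO libraries (conditional knockout, CKO) also carried floxed homeobox genes En1 and En2 (En1lox/lox, En2lox/lox), which are deleted only where Cre is active. Animals were pooled for each library, and the labels give neither their number nor their sex. The libraries are called control 1, control 2, CKO 1 and CKO 2, and values given as a run of 4 follow this order.

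As background, neurofilaments are intermediate filaments of axons. Nefl encodes the light subunit, Nefm and Nefh the medium and heavy subunits with long tails, and Ina encodes alpha-internexin, a subunit that young neurons make before the heavy chain. Tubb3 encodes the neuron-specific beta-tubulin, Mapt the axonal microtubule-binding protein tau, Dcx doublecortin, a microtubule stabiliser of migrating neurons, and Stmn2 a stathmin that regulates microtubule dynamics in growth cones. Gap43 encodes a membrane phosphoprotein of the growth cone, and Crmp1 a collapsin response mediator that relays semaphorin signals to the cytoskeleton. In the developing cerebellum these genes come on as cells leave the cycle and extend axons.

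The promoters of 4 of the 10 genes were found in the RefSeq promoter table (build GRCm38.p6), and the stretch before the first annotated start of each gene is shown because it sets the GC-rich genes beside Dcx. Each is written 5′ to 3′ on the strand of its gene, at chr19:47014531-47014680 for Ina, chr8:123411303-123411423 for Tubb3, chr5:37241808-37241939 for Crmp1 (all on the plus strand) and chrX:143933312-143933461 for Dcx (minus strand). Capitals mark matches to GGGCGG, the core of GC boxes, or to the E-box CAGCTG, searched on both strands (CCGCCC is GGGCGG on the other strand).
Ina: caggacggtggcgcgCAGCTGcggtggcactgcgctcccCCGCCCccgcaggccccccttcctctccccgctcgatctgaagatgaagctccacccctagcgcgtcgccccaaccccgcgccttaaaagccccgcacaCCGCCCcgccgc
Tubb3: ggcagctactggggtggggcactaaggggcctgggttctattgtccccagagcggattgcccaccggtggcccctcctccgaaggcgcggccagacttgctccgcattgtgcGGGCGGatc
Crmp1: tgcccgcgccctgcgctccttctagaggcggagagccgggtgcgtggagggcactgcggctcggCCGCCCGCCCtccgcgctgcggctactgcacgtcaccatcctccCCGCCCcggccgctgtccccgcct
Dcx: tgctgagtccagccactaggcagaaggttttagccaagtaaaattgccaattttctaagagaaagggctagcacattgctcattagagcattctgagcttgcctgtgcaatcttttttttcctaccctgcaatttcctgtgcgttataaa
Over the 250 bases before the RefSeq start, GC content was 70.8% for Ina, 68% for Tubb3 and 75.6% for Crmp1, but 41.6% for Dcx, and the median of all 32851 promoters in the table was 52.4%. GGGCGG matched 5 times for Crmp1, 2 times for Tubb3, 2 times for Ina and 0 times for Dcx, and 32.7% of all promoters hold it. CAGCTG matched 1 time, for Ina, and 13% of all promoters hold it. The other E-box searched, CATCTG, matched none of the 4, and 14.4% of all promoters hold it. TAATTA, the core that homeodomain proteins such as En1 and En2 bind, matched 1 time, for Dcx, outside the stretch printed, and 4.84% of all promoters hold it. These are matches of letters and no measure of binding.

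In the GENCODE M21 annotation (GRCm38), Nefl (chr14:68083863-68089095, plus strand) and Nefm (chr14:68082590-68124846, minus strand) overlap on opposite strands and share 1108 exon bases, and Ina (chr19:47014698-47025327) shares 456 exon bases with Nt5c2 on the opposite strand. Whether the counting used strand is not given in the sources used here, so reads of these overlaps cannot be assigned to 1 of the genes here, and the values of Nefl, Nefm and Ina are uncertain by that share. The other genes are Nefh (chr11:4938754-4948064) and Mapt (chr11:104231390-104332090), Tubb3 (chr8:123411424-123422015), Stmn2 (chr3:8509360-8561606), Gap43 (chr16:42248442-42340651), Crmp1 (chr5:37241940-37292133) and the X-linked Dcx (chrX:143855842-143933311), none of which shares exon bases with another annotated gene.

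A barcode entered the analysis if it held 500 genes and 1000 UMIs or more and no more than 10% of its UMIs were mitochondrial, which left 12546 cells, 2911, 3931, 2007 and 3697 by library. The libraries differed in depth, with medians of 2734, 2122, 5352 and 5544 UMIs per kept cell, and every CKO median lay above both control medians. Median shares of Malat1, a nuclear RNA, were 4.13, 7.91, 2.05 and 3.25% of the UMIs of a barcode. No label gives a batch, so preparation and genotype cannot be told apart. Levels are given in CPM, the UMIs of a gene as a share of all UMIs summed over the cells of a library, scaled to a common total. En2 stood at 136 and 167 CPM in the controls against 29.0 and 19.8 CPM in the CKO libraries, both below both controls. En1 stood at 238 and 382 CPM in the controls against 150.2 and 253 CPM in the CKO libraries, which overlap, and whether the sequenced 3′ ends lie in the deleted parts is not given in the sources used here. Between 1 and 6 kept barcodes were shared by each pair of libraries. Xist, which is made from the inactive X chromosome of females, stood at 0.606, 2254, 1392 and 438 CPM, and the part of sex in the values of the X-linked Dcx was not tested.

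Cells were sorted into 4 sets by the transcription factor transcripts they held. Pax6, a gene of the granule lineage, exceeded Meis2, a gene of the cerebellar nuclei lineage, in 6948 cells (Pax6 > Meis2 cells), and Meis2 exceeded Pax6 in 3870 (Meis2 > Pax6 cells). By library these were 1801, 961, 1208 and 2978 and 603, 2322, 573 and 372 cells. The 759 cells with an Olig2 UMI and the 1067 with a Tbr1 or Lmx1a UMI overlap with both sets. The rule's own genes count among the markers below, so these levels describe the sets. Over the 8 granule lineage markers, which include Pax6, the summed level was 3156, 2969, 3041 and 3339 CPM in Pax6 > Meis2 cells and 1395, 1136, 1829 and 1874 CPM in Meis2 > Pax6 cells. Over the 8 markers of excitatory nuclei neurons, which include Meis2, it was 768, 1009, 830.5 and 762 CPM and 2760.3, 3558, 3246 and 2771 CPM in the same sets. The 7 GABAergic markers together stood between 2.02 and 6.36 CPM in Pax6 > Meis2 cells and between 9.54 and 18.9 CPM in Meis2 > Pax6 cells, where Ptf1a and Slc6a5 were at 0 in all 4 libraries. A sum over cells cannot tell fewer cells making a transcript from less of it per cell.

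The first comparison asks whether the genes differ between nuclei-lineage and granule-lineage marker sets of the same libraries. Of the 9 genes that passed the low-count filter, 7 were higher and 1 lower in Meis2 > Pax6 than in Pax6 > Meis2 cells by edgeR's quasi-likelihood test (adjusted p under 0.05, library as block). Of all 12387 genes tested 52.3% passed, 25.3% higher and 27% lower, so a call was common in this comparison. The median log2 fold change of the 9 genes was 0.83, against -0.01 over all genes tested. Ina changed most: it stood at 888, 1455, 1176 and 692 CPM in Meis2 > Pax6 cells and at 291, 712, 259.9 and 161 CPM in Pax6 > Meis2 cells. Every library was higher in the first set, and edgeR gave a 3.17-fold difference, log2 1.67 (adjusted p = 2.58e-06, SE 0.15). Nefl stood at 375, 942, 741 and 502 CPM against 188, 753, 392 and 191 CPM, a 1.79-fold difference by edgeR, log2 0.84 (adjusted p = 0.000162, SE 0.13). Nefm stood at 349, 702, 579 and 419 CPM against 180.2, 565, 287 and 168 CPM, a 1.78-fold difference by edgeR, log2 0.83 (adjusted p = 0.000135, SE 0.12). Both were higher in 4 of 4 libraries, but control 2 and CKO 1 stood above control 1 and CKO 2 in both sets, and the ranges of the sets over libraries overlapped. Nefh, the heavy chain, had 8, 6, 6 and 6 UMIs in all kept cells of the 4 libraries and did not pass the low-count filter.

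Among the microtubule genes, Mapt stood at 518, 534, 352 and 318 CPM in Meis2 > Pax6 cells against 183, 318, 139.7 and 120.0 CPM in Pax6 > Meis2 cells. Mapt was higher in 4 of 4 libraries, and the sets did not overlap, though control 2 of the second set came close to CKO 2 of the first, with a 2.27-fold difference by edgeR, log2 1.18 (adjusted p = 3e-06, SE 0.11). Tubb3 stood at 2662, 3771, 4334 and 2290.3 CPM against 1201, 2428, 1611 and 895 CPM, a 2.11-fold difference by edgeR, log2 1.08 (adjusted p = 1.60e-05, SE 0.12). Dcx stood at 634, 645, 466 and 553 CPM against 353, 451, 233 and 301 CPM, a 1.68-fold difference by edgeR, log2 0.75 (adjusted p = 3.40e-05, SE 0.09). Both were higher in 4 of 4 libraries, and the sets did not overlap over libraries for Dcx but did for Tubb3. Stmn2 did not pass: it stood at 1803, 1965, 2314 and 2083 CPM against 1755, 2032, 1962 and 1859.5 CPM, and the sets overlapped, with a log2 fold change of 0.03 (adjusted p = 0.798, SE 0.10) by edgeR.

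The growth cone genes went opposite ways. Gap43 stood at 872, 822, 647 and 765 CPM in Meis2 > Pax6 cells and 1546, 1233, 1459 and 1666 CPM in Pax6 > Meis2 cells. The sets did not overlap, and Gap43 was 1.99-fold lower in Meis2 > Pax6 cells by edgeR, log2 -0.99 (adjusted p = 2.49e-05, SE 0.12). Crmp1 stood at 418, 577, 441 and 451 CPM against 265, 399.6, 277 and 224 CPM, higher in 4 of 4 libraries and 1.57-fold by edgeR, log2 0.65 (adjusted p = 8.75e-05, SE 0.09). All 8 calls held under each alternative run for this comparison, among them DESeq2, cells thinned to a common depth, non-cycling cells and each library left out. The markers of dividing cells moved with this comparison: 6 of 6 cycling genes were lower in Meis2 > Pax6 cells, with sums of 353, 251, 802 and 510.0 CPM against 1797, 1438, 2347 and 1967 CPM. Among cells with fewer than 2 UMIs of the cycling genes, the log2 fold change of Ina was 1.16, of Nefl 0.43, of Tubb3 0.69 and of Gap43 -1.36, and Stmn2 was then lower (log2 -0.33, adjusted p = 0.0141 by edgeR). Depth moved with it too, with medians of 2617, 2171.5, 3110 and 2248 UMIs per cell against 3238, 2339, 13722.5 and 9818.5. In cells under 4000 UMIs, chosen after seeing the data, the log2 fold change of Ina was 1.00, of Nefl 0.42, of Tubb3 0.69 and of Gap43 -0.35, all still called.

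**Figure D1:**
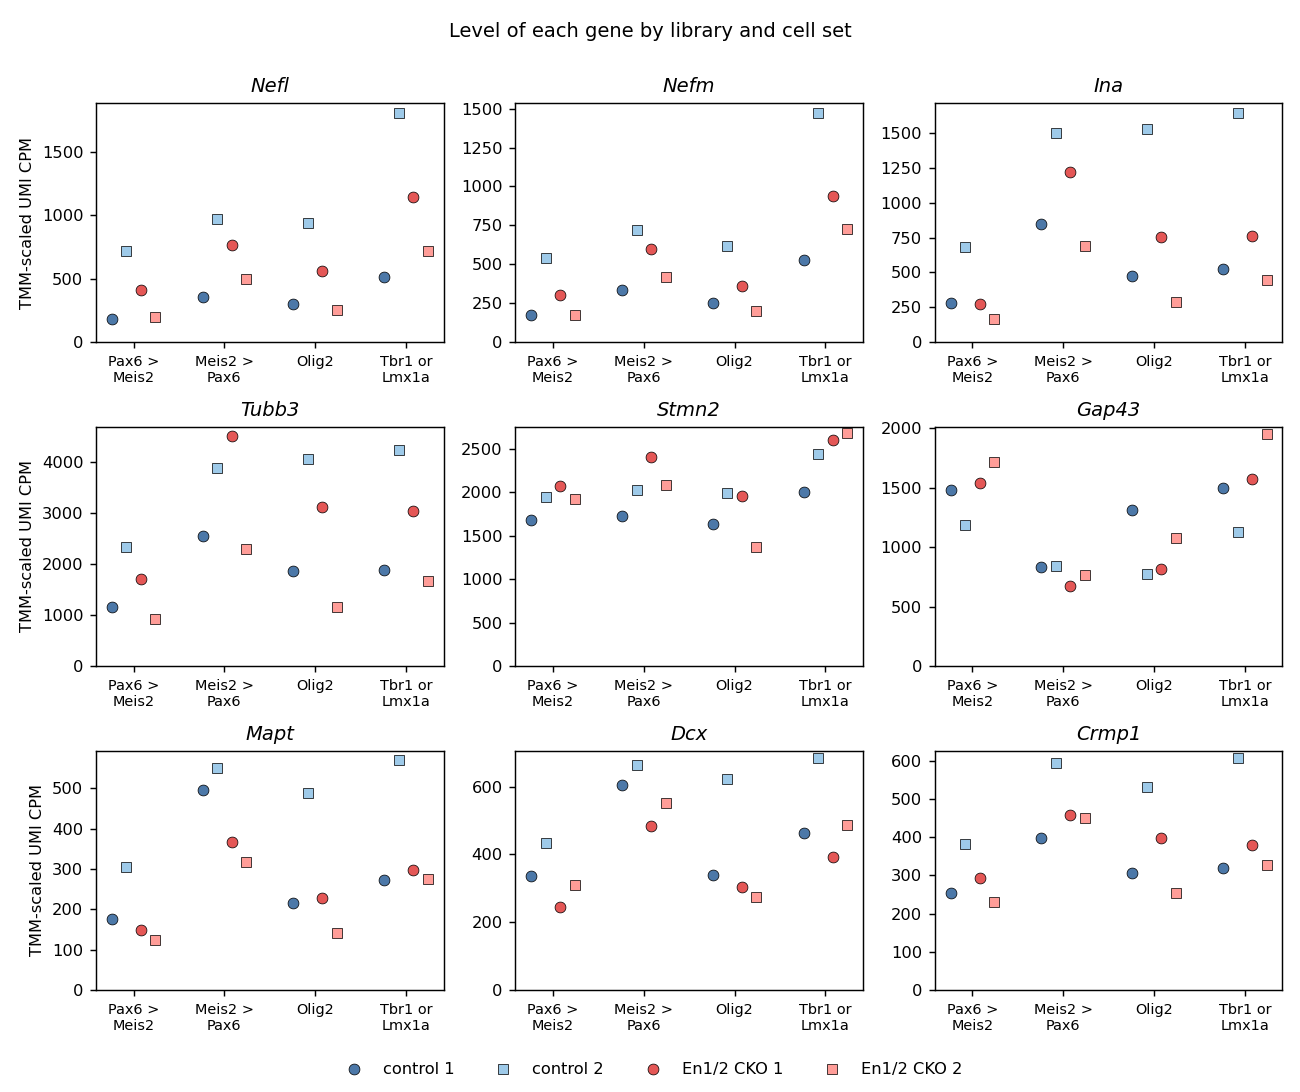
Level of each gene (TMM-scaled UMI CPM, linear axes from 0) in the 4 cell sets, 1 point per library and no error bar, for controls and CKO libraries. Ina, Tubb3 and Mapt are lowest in Pax6 > Meis2 cells of every library, Gap43 is lowest in Meis2 > Pax6 cells of 3 of 4 libraries, and control 2 stands highest for most genes.

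Over the 4 sets the genes had different orders of level within a library. Nefl and Nefm were lowest in Pax6 > Meis2 cells and highest in Tbr1 or Lmx1a cells in 4 of 4 libraries. In Tbr1 or Lmx1a cells Nefl stood at 514, 1807, 1143 and 721 CPM and in Olig2 cells at 303, 939, 564 and 256 CPM. The Olig2 and Meis2 > Pax6 cells between them overlapped over libraries (Nefl at 359, 969.8, 769.8 and 502 CPM in the latter). Ina, Tubb3, Mapt and Crmp1 were also lowest in Pax6 > Meis2 cells in 4 of 4 libraries, but highest in Meis2 > Pax6 cells in 3 of 4. Stmn2 was highest in Tbr1 or Lmx1a cells in 4 of 4 libraries, with 2009, 2443, 2606 and 2688 CPM, and its range overlapped with those of Pax6 > Meis2 and Meis2 > Pax6 cells but lay just above that of Olig2 cells, at 1635, 1988, 1959 and 1374 CPM. These levels were scaled by edgeR's TMM factors within each set, and the orders given here hold with plain CPM too.

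**Figure D2:**
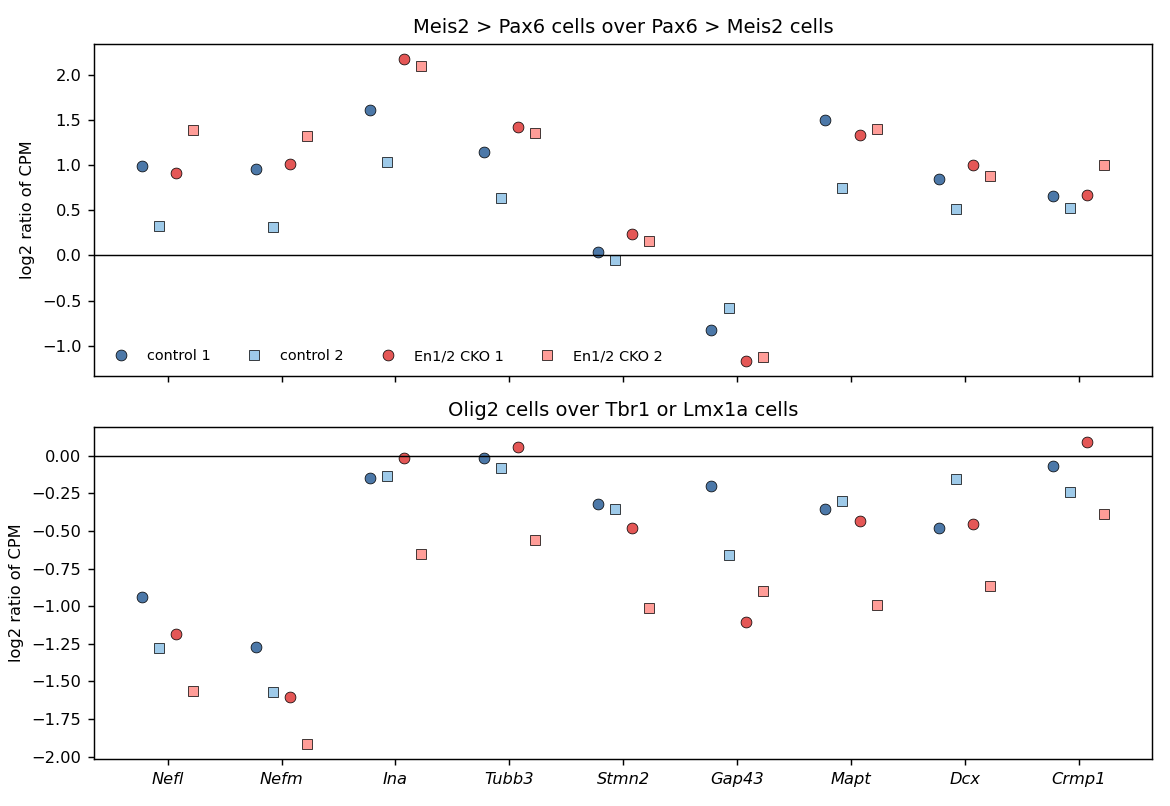
Log2 ratio of plain CPM between cell sets for each gene, 1 point per library, with a line at 0 for no difference. Points for Meis2 > Pax6 over Pax6 > Meis2 cells lie above 0 in every library for Ina, Mapt, Tubb3, Nefl, Nefm, Dcx and Crmp1 and below 0 for Gap43. Those for Olig2 over Tbr1 or Lmx1a cells lie below 0 in every library for Nefl, Nefm, Ina, Stmn2, Gap43, Mapt and Dcx, by little for Ina in CKO 1.

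Of 75 related genes in 6 lists (tubulins, microtubule-associated proteins and stathmins, collapsin response mediators, other intermediate filaments, growth cone membrane and actin genes, and axonal motors with the spectrin skeleton), 73 were tested here, of which 40 were higher and 13 lower in Meis2 > Pax6 cells by edgeR. Shares over all genes tested were 25.3% higher and 27% lower, to be read beside the counts of each list. All 14 of 18 motor and spectrin genes that passed were higher, as were all 10 of 15 microtubule-associated genes and both of 4 collapsin response mediators. Tubulins split, with 4 of 10 higher and 4 lower, and so did growth cone membrane and actin genes, with 8 of 20 higher and 5 lower. Of 6 other intermediate filament genes 2 were higher and 4 lower. Among related genes of at least 10 CPM, the largest log2 fold changes were 1.92 for Ncam1, a cell adhesion molecule, 1.34 for the beta-tubulin Tubb2a, 1.30 for the membrane adaptor Ank2 and 1.26 for the dendritic microtubule protein Map2. On the other side stood -2.15 for Tuba1c and -1.05 for Tuba1b, alpha-tubulins, -1.13 for the progenitor filament gene Vim and -0.85 for the nuclear lamina gene Lmnb1.

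Olig2 encodes a transcription factor of neural progenitors, Tbr1 one of medial nuclei neurons, and Lmx1a one of the roof plate and the unipolar brush lineage. Cells with UMIs of both kinds were left out, and 6 of 9 genes were then lower in Olig2 than in Tbr1 or Lmx1a cells by edgeR, with 6.98% of all genes called and 3.55% lower. No gene of the 9 was higher, and their median log2 fold change was -0.50, against 0.01 over all genes. Nefm stood at 206, 507, 321 and 188 CPM in Olig2 cells and 496, 1505, 974 and 710.3 CPM in Tbr1 or Lmx1a cells. It was lower in 4 of 4 libraries, 3.01-fold by edgeR, log2 -1.59 (adjusted p = 2.95e-09, SE 0.08). Nefl stood at 236, 728, 514 and 239.7 CPM against 452, 1766, 1169 and 707 CPM and was 2.36-fold lower by edgeR, log2 -1.24 (adjusted p = 5.80e-08, SE 0.08). Ina, by contrast, stood at 449, 1446, 709.8 and 274 CPM against 499, 1589.5, 716 and 430.4 CPM, a log2 fold change of -0.21 (adjusted p = 0.165, SE 0.08) that did not pass edgeR's test. Gap43 stood at 1361, 717, 747 and 1025 CPM against 1562, 1134, 1607 and 1908 CPM, log2 -0.71 (adjusted p = 0.00034, SE 0.10) by edgeR. Stmn2 (-0.53), Mapt (-0.50) and Dcx (-0.47) passed as well, with edgeR's adjusted p between 0.00113 and 0.00458, while Tubb3 (-0.13) and Crmp1 (-0.13) did not.

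Only Nefl and Nefm passed under every alternative run for this comparison. Non-cycling cells kept 3 calls (Nefl, Nefm and Gap43, where 4.04% of all genes were called), and cells under 4000 UMIs, chosen after seeing the data, kept 2 (where 4.3% were). Cycling markers moved with the comparison, 4 of 6 being higher in Olig2 cells, with sums of 1894, 536, 2339.6 and 2780.3 CPM against 1614, 404, 1849.9 and 1766 CPM. Median UMIs per cell were 4071, 2564, 12962 and 14675.5 in Olig2 cells and 2975, 2486, 5310 and 5244 in Tbr1 or Lmx1a cells. All 4 unipolar brush markers, of which the rule used Lmx1a, were lower in Olig2 cells, and the part of these in the smaller calls was not tested. Of the 68 related genes tested, 15 were lower and 0 higher by edgeR (5 higher at an unadjusted p under 0.05), where 3.55% of all genes were lower. L1cam, an axonal adhesion molecule, had a log2 fold change of -1.18, the stathmin Stmn4 -0.87, Ncam1 -0.61 and the membrane glycoprotein Gpm6a -0.59.

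The make-up of neurofilament transcripts, the share of each gene in the UMIs of Nefl, Nefm, Nefh and Ina together, was read as a further description. Ina made up 55, 47, 47.1 and 42.9% of them in Meis2 > Pax6 cells and 44.1, 35.1, 27.7 and 31% in Pax6 > Meis2 cells. In Olig2 cells it made up 46, 49.5, 45 and 38.7%, and in Tbr1 or Lmx1a cells 33.4, 33.4, 26.8 and 23.6%. Within every library Tbr1 or Lmx1a cells thus had the lowest share of Ina, and the shares of Meis2 > Pax6 and Olig2 cells lay above that of Pax6 > Meis2 cells. The shares rest on 3174, 18732, 11031 and 2873 UMIs in Meis2 > Pax6 cells, where control 1 had 55% (95% Wilson interval 53.3 to 56.7%) and CKO 2 42.9% (95% Wilson interval 41.1 to 44.7%). Such intervals cover counting error only. In Pax6 > Meis2, Olig2 and Tbr1 or Lmx1a cells both CKO shares lay below both controls, by little for CKO 1 in Olig2 cells, and in Meis2 > Pax6 cells the groups overlapped. These differences were not tested. The ratio of Nefl to Nefm UMIs was 1.05, 1.33, 1.37 and 1.14 in Pax6 > Meis2 cells and 1.07, 1.34, 1.28 and 1.2 in Meis2 > Pax6 cells, with control 1 and CKO 2 below control 2 and CKO 1 in both sets.

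**Figure D3:**
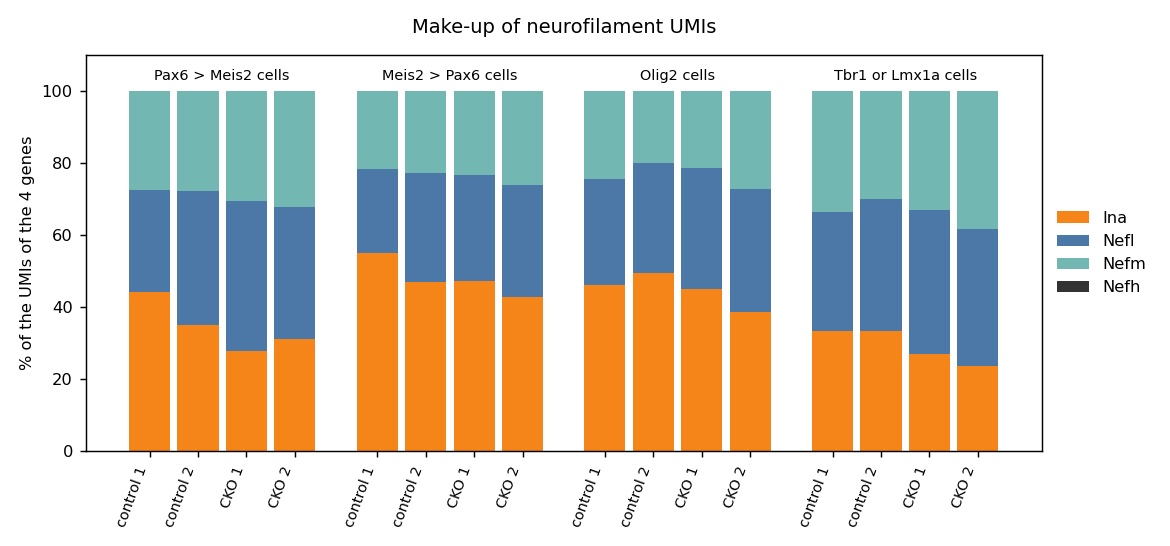
Share of Nefl, Nefm, Nefh and Ina (% of the UMIs of the 4 genes) as stacked bars from 0, 1 bar per library in each of the 4 cell sets. Ina takes between 42.9 and 55.0% in Meis2 > Pax6 cells and between 23.6 and 33.4% in Tbr1 or Lmx1a cells, and Nefh is too rare to be seen.

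The study's main comparison is En1/2 CKO against control. None of the 9 genes tested passed edgeR's test in any set, where 0.0574% of all genes passed in Pax6 > Meis2 cells, 0.212% in Meis2 > Pax6 cells, 0.019% in Olig2 cells, 0.00981% in Tbr1 or Lmx1a cells and 0% in all kept cells. At an unadjusted p under 0.05 there were 2 of 9 genes in Pax6 > Meis2 cells (Ina and Mapt), 1 in Meis2 > Pax6 cells (Mapt), 1 in all kept cells (Mapt) and 0 in Olig2 and in Tbr1 or Lmx1a cells. Of all genes 9.82, 14.7, 11.2, 7.63 and 8.94% reached that threshold in these sets, in the same order, so that 1 of 9 is near the share of all genes. DESeq2 called 0 of the 9 genes in each set. The median log2 fold change of the 9 genes was -0.47 in Pax6 > Meis2 cells, -0.13 in Meis2 > Pax6 cells, -0.60 in Olig2 cells, -0.38 in Tbr1 or Lmx1a cells and -0.57 in all kept cells, where that of all genes tested was -0.01 or nearer to 0. The levels given for this comparison are scaled by edgeR's TMM factors within each set. Shares of all genes with both CKO libraries below or above both controls were counted in plain CPM. In Pax6 > Meis2 cells Ina had 278 and 684 CPM in the controls against 275 and 167 CPM in the CKO libraries. Both CKO libraries lay below both controls, CKO 1 only just below control 1, and edgeR gave a log2 fold change of -1.12 (adjusted p = 0.446, SE 0.41). In Meis2 > Pax6 cells Ina had 848 and 1499 CPM in the controls against 1221 and 691 CPM in the CKO libraries, which overlap, with a log2 fold change of -0.30 (adjusted p = 0.747, SE 0.34) by edgeR.

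Nefl and Nefm split the libraries across genotype. In Pax6 > Meis2 cells Nefl had 180.3 and 723 CPM in the controls against 415 and 197 CPM in the CKO libraries, and Nefm had 173 and 543 CPM in the controls against 303 and 173 CPM in the CKO libraries. Control 2 was highest, CKO 1 second, and control 1 and CKO 2 lay close together. The log2 fold changes, -0.56 (adjusted p = 0.724, SE 0.55) for Nefl and -0.58 (adjusted p = 0.66, SE 0.47) for Nefm by edgeR, did not pass. In Meis2 > Pax6 cells Nefl had 359 and 969.8 CPM in the controls against 769.8 and 502 CPM in the CKO libraries, with a log2 fold change of -0.07 (SE 0.40), and that of Nefm was -0.05 (SE 0.34). Tubb3 showed the same split of libraries, with 1150.2 and 2331 CPM in the controls against 1705 and 925 CPM in the CKO libraries in Pax6 > Meis2 cells and 2543 and 3884 CPM in the controls against 4502 and 2287 CPM in the CKO libraries in Meis2 > Pax6 cells, and log2 fold changes of -0.40 (SE 0.42) and 0.08 (SE 0.35). Without control 2 the log2 fold change of Nefl in Pax6 > Meis2 cells turned to 0.77 and that of Nefm to 0.48, so that the direction rests on that library.

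For Mapt and Dcx, each CKO library lay below each control in both main sets, without passing the test. Mapt had 175 and 305 CPM in the controls against 148 and 124 CPM in the CKO libraries in Pax6 > Meis2 cells and 495 and 549.9 CPM in the controls against 365 and 318 CPM in the CKO libraries in Meis2 > Pax6 cells. Its log2 fold changes were -0.82 (adjusted p = 0.436, SE 0.29) and -0.61 (adjusted p = 0.245, SE 0.22) by edgeR, and in cells under 4000 UMIs, chosen after seeing the data, they were -0.46 and -0.36. Dcx had 338 and 433 CPM in the controls against 246 and 311 CPM in the CKO libraries in the first set and 606 and 664 CPM in the controls against 484 and 553 CPM in the CKO libraries in the second, with log2 fold changes of -0.47 (SE 0.26) and -0.29 (SE 0.22). In these sets 34% and 24.7% of all genes with at least 20 UMIs also had both CKO libraries below both controls, counted in plain CPM. Mapt and Dcx had this order in plain CPM too, so that it alone sets neither gene apart. Of the 9 genes tested, 3 had it in Pax6 > Meis2 cells (Ina, Mapt and Dcx) and 3 in Meis2 > Pax6 cells (Gap43, Mapt and Dcx), on either scale.

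Stmn2 had 1680.5 and 1951 CPM in the controls against 2076 and 1921 CPM in the CKO libraries in Pax6 > Meis2 cells, which overlap, and 1722 and 2024 CPM in the controls against 2403 and 2079.8 CPM in the CKO libraries in Meis2 > Pax6 cells, where both CKO libraries were above both controls, as for 19.1% of all genes. Gap43 was above both controls in Pax6 > Meis2 cells on the TMM scale, with 1480.3 and 1184 CPM in the controls against 1544 and 1721 CPM in the CKO libraries. In plain CPM, where 12.8% of all genes were above both controls, Gap43 overlapped, with 1546 and 1233 CPM in the controls against 1459 and 1666 CPM in the CKO libraries. In Meis2 > Pax6 cells Gap43 lay below both controls, with 833 and 847 CPM in the controls against 672 and 764 CPM in the CKO libraries. Its log2 fold changes were 0.29 (SE 0.30) and -0.23 (SE 0.22), and neither passed. In cells under 4000 UMIs that of Gap43 in Pax6 > Meis2 cells turned to -0.42. Crmp1 overlapped between the groups in both sets, with log2 fold changes of -0.28 (SE 0.28) and -0.13 (SE 0.25). Of the related genes, edgeR called 0 in each of the 5 sets, of 68 to 74 tested, with 11 at an unadjusted p under 0.05 in Pax6 > Meis2 cells, 11 in Meis2 > Pax6 cells, 6 in Olig2 cells, 3 in Tbr1 or Lmx1a cells and 11 in all kept cells, to be read beside the shares of all genes given above.

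The Olig2 cells of the libraries fell into different lineage sets: 29 of 112, 266 of 366, 65 of 138 and 25 of 143 of them were Meis2 > Pax6 cells, most in control 2 and fewest in CKO 2, and 49 of 144, 306 of 511, 95 of 264 and 28 of 148 of the Tbr1 or Lmx1a cells were. Ina and Mapt were higher in Meis2 > Pax6 cells (above), and the part of this make-up in the values of these sets was not tested. In Olig2 cells all 9 log2 fold changes were below 0, the lowest being -0.94 (SE 0.62) for Ina and -0.92 (SE 0.43) for Mapt. Ina had 472 and 1531 CPM in the controls against 757 and 289.7 CPM in the CKO libraries there, and Mapt 216 and 488 CPM in the controls against 229 and 142 CPM in the CKO libraries, and in both genes the groups overlapped. Dcx did not overlap, with 341 and 623 CPM in the controls against 303 and 275 CPM in the CKO libraries, where 23.1% of all genes had both CKO libraries lower. In Tbr1 or Lmx1a cells Ina had 522 and 1642 CPM in the controls against 764 and 445 CPM in the CKO libraries, and its log2 fold change was -0.84 (SE 0.54). Stmn2 and Gap43 were above both controls in Tbr1 or Lmx1a cells, with log2 fold changes of 0.25 (SE 0.42) and 0.43 (SE 0.40), and 17.8% of all genes were.

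Leaving out control 1 brought calls in 3 of the 5 sets. Without it, a fit that assumes control 2 to vary like the CKO libraries called 2 genes in all kept cells, Ina (log2 -1.71, edgeR adjusted p = 0.0456) and Mapt (-1.37, adjusted p = 0.0304), where it called 9% of all genes. It called 5 in Olig2 cells, with log2 fold changes of -1.18 for Nefl, -1.12 for Nefm, -1.53 for Ina, -1.38 for Mapt and -1.09 for Dcx, where it called 11.4% of all genes. The only control in that fit, control 2, is the library with the largest share of Meis2 > Pax6 cells among its Olig2 cells. In Tbr1 or Lmx1a cells it called Ina alone (-1.46) and 4.25% of all genes, and in the 2 main sets none. Without a low-count filter, where 1.63% and 3.44% of all genes were called, Ina was called in Pax6 > Meis2 cells (log2 -1.08, edgeR adjusted p = 0.0167) and in all kept cells (-1.08, adjusted p = 0.0476). Other values differed between the libraries as well. Granule lineage markers of Meis2 > Pax6 cells, given above, summed to more in each CKO library than in either control, though Neurod1 was lower. The sums of the nuclei neuron markers in that set overlapped between the groups. In each of the main sets the cycling genes summed to more in each CKO library than in either control, as given above, and fits on non-cycling cells called 0 of the 9 genes. Erythroid genes, which these cells should lack, summed to 29.3, 1353, 1050.1 and 2.93 CPM in Pax6 > Meis2 and 59.8, 3795, 23 and 4.49 CPM in Meis2 > Pax6 cells. They were high in control 2 and CKO 1 in the first set, the libraries where Nefl, Nefm and Tubb3 were highest, and in control 2 alone in the second. Radial glia genes summed to 250.1, 119, 247 and 246 CPM and 205, 50.8, 137 and 254 CPM, lowest in control 2. Their part in the values was not tested.

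**Figure D4:**
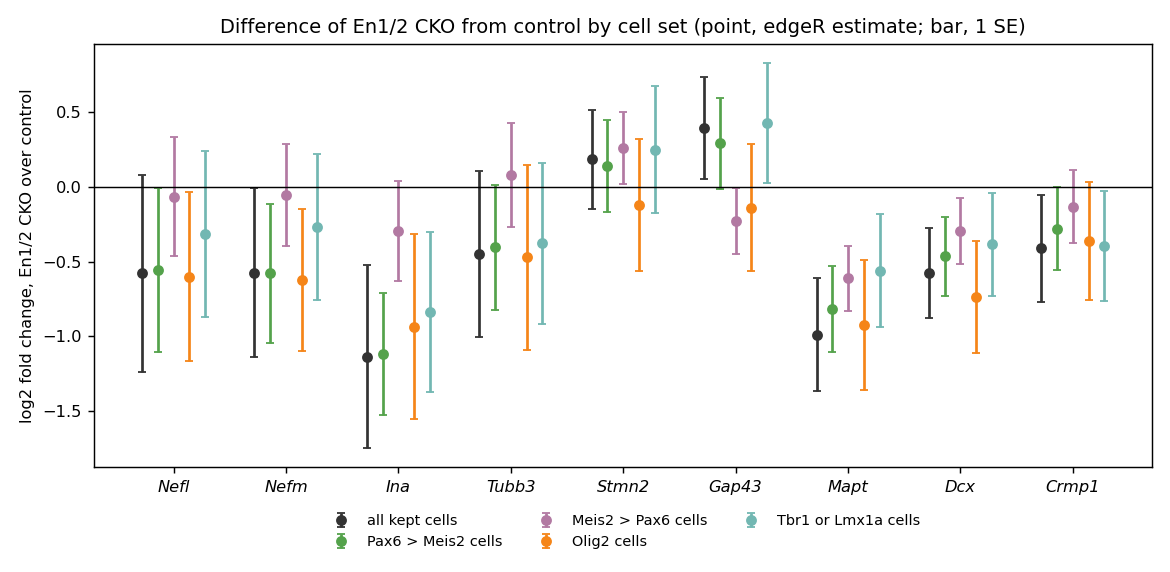
Log2 fold change of En1/2 CKO over control for each gene in the cell sets, with points for edgeR's estimate and bars for 1 standard error, from 2 libraries a group. Ina and Mapt lie below 0 in every set, at -1.12 and -0.82 in Pax6 > Meis2 cells, Gap43 lies above 0 in 3 sets and below in 2, and no point passed the test.

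Whether the CKO difference itself differed between Meis2 > Pax6 and Pax6 > Meis2 cells was tested as an interaction with the library as block. EdgeR called 0 of the 9 genes, where 0.114% of all genes were called, and DESeq2 called 0. By edgeR 2 of the 9 genes and 5.64% of all genes had an unadjusted p under 0.05. Ina had the largest value, the difference being 0.74 (adjusted p = 0.436, SE 0.22) on the log2 scale, which means less negative in Meis2 > Pax6 cells, and Gap43 had -0.52 (adjusted p = 0.815, SE 0.22) by edgeR. Without control 1, 3.14% of all genes were called, 4 of these genes among them: Ina (0.95), Nefm (0.69), Nefl (0.67) and Gap43 (-0.72).

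Malat1 is a long noncoding RNA that stays in the nucleus, and barcodes differ in the share of UMIs it takes. All kept cells together were split into 4 bins of equal size at shares of 2.00, 4.37 and 8.31% of UMIs, and the lowest bin was compared with the highest within each library. In Pax6 > Meis2 cells 5 of the 9 genes were lower and 1 higher in the lowest bin by edgeR, where 61% of all genes were called, 30.6% lower and 30.4% higher. Ina stood at 201, 712, 214 and 111 CPM in the lowest bin and 618, 841, 805 and 361 CPM in the highest. It was lower in 4 of 4 libraries, by least in control 2, with a log2 fold change of -1.18 (adjusted p = 3.33e-06, SE 0.19) by edgeR. Nefm stood at 118, 523, 235 and 122 CPM against 446, 590.1, 835 and 287 CPM, log2 -1.10 (adjusted p = 1.22e-05, SE 0.20). Mapt (-1.17), Nefl (-0.88) and Dcx (-0.82) were lower as well, with edgeR's adjusted p between 6.18e-06 and 0.000156. Gap43 went the other way, at 1620.3, 2339.6, 1475 and 1615 CPM against 1219, 848, 815 and 851 CPM, log2 1.09 (adjusted p = 9.88e-06, SE 0.19) by edgeR. Tubb3 (-0.06), Stmn2 (0.22) and Crmp1 (-0.004) did not pass.

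In Meis2 > Pax6 cells the picture was another, with 3 of 9 genes higher and 0 lower in the lowest bin by edgeR, where 49% of all genes were called, 25% higher. Gap43 stood at 1421, 1464, 742 and 1068 CPM in the lowest bin and 799, 713, 604 and 506 CPM in the highest, log2 0.89 (adjusted p = 0.00111, SE 0.21). Tubb3 stood at 3525, 5907, 4343 and 2508 CPM against 2444, 3262, 2158 and 1660.1 CPM, log2 0.82 (adjusted p = 0.00681, SE 0.24) by edgeR, and Stmn2 had a log2 fold change of 0.58 (adjusted p = 0.0395, SE 0.23). All 3 were higher in 4 of 4 libraries. Ina stood at 959, 1869, 951 and 595 CPM against 909, 1305, 1146 and 670.3 CPM, higher in the controls and lower in the CKO libraries, with a log2 fold change of 0.12 (adjusted p = 0.667, SE 0.21) by edgeR. Mapt (-0.13), Dcx (-0.29), Nefm (0.16), Nefl (0.40) and Crmp1 (0.45) did not pass. Without control 2 Gap43 alone was called, without CKO 1 Gap43 and Nefl (0.72), and without CKO 2 Gap43 and Tubb3, where 44.2, 42.1 and 36% of all genes were called. Without a low-count filter Stmn2 was lost, and 18.5% of all genes were called. The lowest bin held 61, 218, 123 and 23 cells here.

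Depth moved with the Malat1 share, though not in the same direction throughout. Median UMIs per cell in Pax6 > Meis2 cells were 8134, 2968.5, 17128 and 11972 in the lowest bin and 2925, 2301, 2401 and 1907.5 in the highest, and in Meis2 > Pax6 cells 1497, 1689, 12588 and 8597 against 3070.5, 2253, 2309 and 2113. In Meis2 > Pax6 cells the lowest bin was thus shallower than the highest in both controls and deeper in both CKO libraries. Ina and Mapt were higher in that bin of the controls and lower in that of the CKO libraries, and the part of depth in this was not tested. Within cells under 4000 UMIs, chosen after seeing the data, 39% of all genes were called in Pax6 > Meis2 cells, 3 of these genes among them: Gap43 (0.55), Dcx (-0.41) and Tubb3 (0.37). There the log2 fold changes of Nefl, Nefm, Ina and Mapt were -0.01, -0.21, -0.12 and -0.30, and none of them passed. The cycling share moved too: 52.7, 43, 66.4 and 58.1% of Pax6 > Meis2 cells in the lowest bin and 24, 30.7, 25 and 26.9% in the highest had at least 2 UMIs of cycling genes. Among non-cycling Pax6 > Meis2 cells the log2 fold change of Ina was -0.72 and that of Gap43 1.30.

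**Figure D5:**
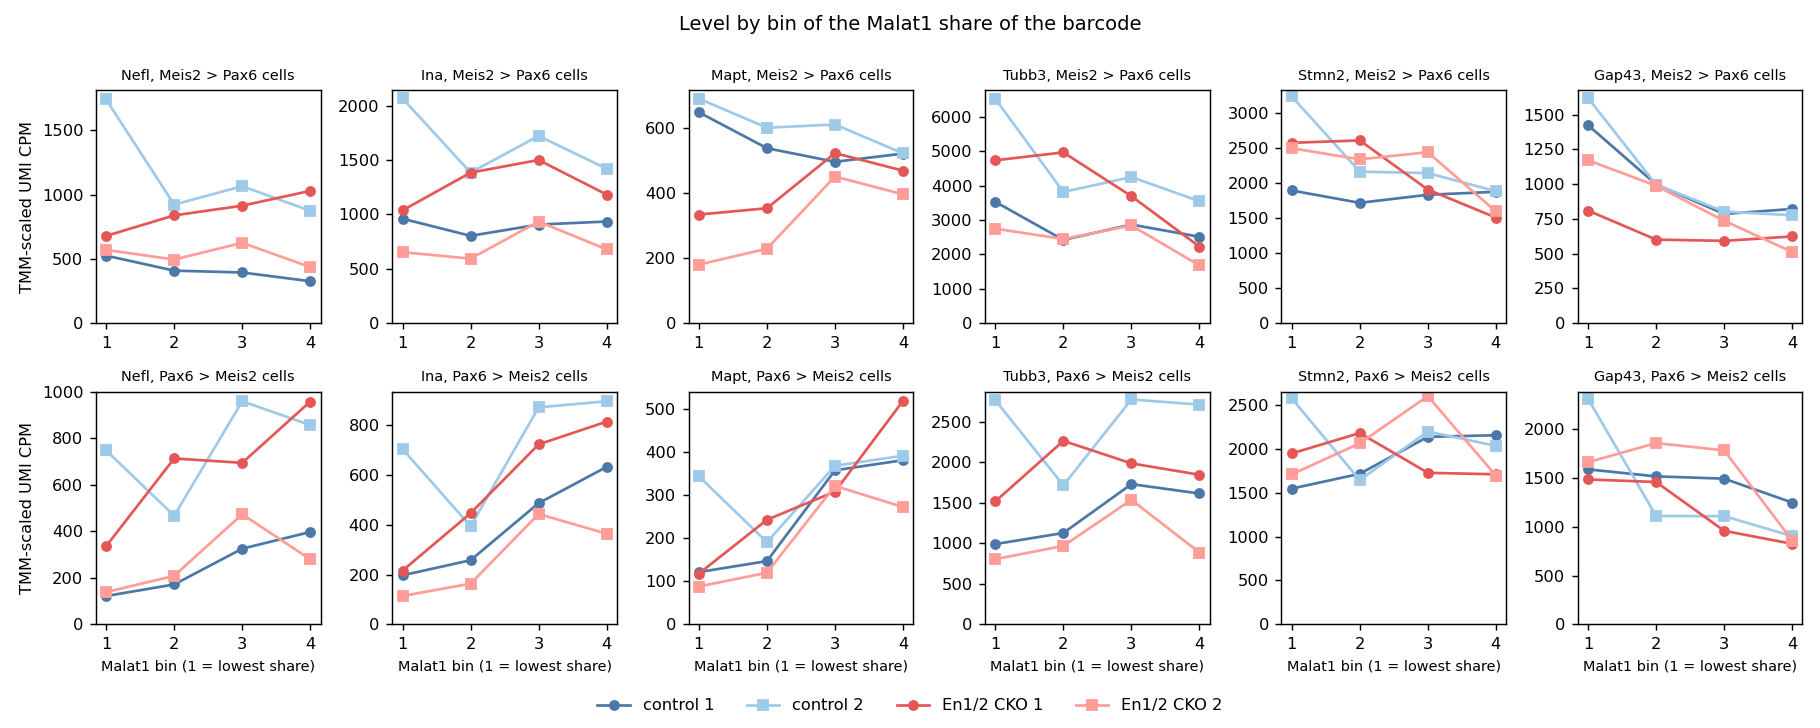
Level of selected genes (TMM-scaled UMI CPM, linear axes from 0) over bins of the Malat1 share of the barcode, 1 line per library, in Pax6 > Meis2 and Meis2 > Pax6 cells. In Pax6 > Meis2 cells Ina stands higher in the highest than in the lowest bin of each library and Gap43 stands lower, but control 2 dips in the second bin for Ina.

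The difference of the Malat1 contrast between the 2 sets, tested after seeing the data, reached an unadjusted p under 0.05 for 5 of the 9 genes (8.36% of all genes) and an adjusted p under 0.05 for 0 by edgeR, where 0.12% of all genes were called, while DESeq2 called 2 (Ina and Tubb3) and 0.131% of all genes. EdgeR's differences on the log2 scale were 1.27 (adjusted p = 0.103, SE 0.30) for Ina, 1.25 (SE 0.33) for Nefl, 1.24 (SE 0.33) for Nefm and 1.02 (SE 0.34) for Mapt. Of the related genes, 22 of 68 were higher and 32 lower in the lowest bin of Pax6 > Meis2 cells, and 25 of 67 higher and 19 lower in that of Meis2 > Pax6 cells. Over all genes tested, 30.4% were higher and 30.6% lower in the first set. In the second 49% were called, 25% higher, so calls were common in both. In both sets the actin regulators Pfn1 (2.18 and 1.46) and Tmsb4x (2.00 and 1.73) and the filament gene Vim (1.92 and 1.85) were among the highest. The ankyrins Ank2 (-3.06 and -2.03) and Ank3 (-2.23 and -1.40) and the adhesion molecules L1cam (-2.20 and -1.60) and Ncam1 (-2.05 and -1.60) were among the lowest.

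The CKO comparison was also made within each Malat1 bin of Meis2 > Pax6 cells. EdgeR called 0 of the 9 genes in each of the 4 bins, where 0.0161, 0, 0.0957 and 0.164% of all genes were called from the lowest to the highest, and DESeq2 called 0 in each. At an unadjusted p under 0.05 there were 5 genes in the lowest bin (Ina, Gap43, Mapt, Dcx and Crmp1), 1 in the second (Mapt), 0 in the third and 2 in the highest (Tubb3 and Gap43), against 7.35, 10.4, 4.38 and 11.7% of all genes. In the lowest bin Mapt had 649.6 and 692 CPM in the controls against 335 and 181 CPM in the CKO libraries, with a log2 fold change of -1.33 (adjusted p = 0.54, SE 0.31) by edgeR, and Dcx 587 and 763 CPM in the controls against 397 and 463 CPM in the CKO libraries, with -0.67 (adjusted p = 0.643, SE 0.26). Both CKO libraries lay below both controls for 4 of the 9 genes (Gap43, Mapt, Dcx and Crmp1). In plain CPM these 4 and Ina had this order, as had 17.9% of all genes with at least 20 UMIs. That bin had only 23 cells in CKO 2, and its median depths, given above, were larger for each CKO library than for each control. Without control 1, Nefl was called there (-1.49, with 0.517% of all genes), and without CKO 1, Mapt (-1.91, with 0.848%). Mapt was also called there without a low-count filter (-1.29, edgeR adjusted p = 0.0112, with 0.561% of all genes) and with the replicate number as a block (-1.42, edgeR adjusted p = 0.0167, with 0.402%). With Malat1 limits set within each library Mapt was called in the second bin (-0.94, edgeR adjusted p = 0.0238), with 13.4% of all genes.

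Shares of cells with a UMI were read after each cell was thinned to 2000 UMIs, which left out 467, 385, 165 and 719 shallower Pax6 > Meis2 cells and 180, 1000, 143 and 150 Meis2 > Pax6 cells. Ina was seen in 41.8, 62.7, 34.6 and 22.2% of Pax6 > Meis2 cells and 73.5, 88.7, 80.0 and 62.2% of Meis2 > Pax6 cells. Nefl was seen in 31.4, 62.2, 43.6 and 24.8% and 35, 67.2, 54.4 and 44.1%, and Nefm in 29, 51.4, 33.2 and 21% and 38.5, 57, 47 and 42.3%. At this depth more Meis2 > Pax6 than Pax6 > Meis2 cells of each library held each of these transcripts. Unthinned shares of Ina were 60.0, 71.9, 68.7 and 47.9% and 77.4, 86.8, 85.9 and 67.2%, higher in Meis2 > Pax6 cells of each library. Unthinned shares of Nefl were 48.9, 72.4, 80.5 and 49.4% and 45.9, 72.4, 72.8 and 53.2%, lower in Meis2 > Pax6 cells of control 1 and CKO 1, nearly equal in control 2 and higher in CKO 2. Those of Nefm were higher in Meis2 > Pax6 cells except in CKO 1, with 67.5% of Pax6 > Meis2 and 64.7% of Meis2 > Pax6 cells. As a measure of free RNA, the 16 haemoglobin-rich barcodes that could be thinned held Nefl in 4 of 16 (25%, 95% Wilson interval 10.2 to 49.5%) and Ina in 3 of 16 (18.8%, 95% Wilson interval 6.59 to 43%), at the same thinned depth. Before thinning there were 4, 12, 3 and 0 such barcodes by library, so that most came from control 2 and none from CKO 2. In Pax6 > Meis2 cells, the shares of control 1, CKO 1 and CKO 2 lie within those intervals for both genes, and so do the Nefl shares of control 1 and CKO 2 in Meis2 > Pax6 cells, so that these shares are not told apart from this pooled background. Nefm was held by 1 of the 16 barcodes (6.25%, 95% Wilson interval 1.11 to 28.3%). The Nefm share of CKO 2 in Pax6 > Meis2 cells lies within that interval. Its other thinned shares lie above it, by little for control 1 in Pax6 > Meis2 cells. Over the 6 comparisons of CKO with control, exact permutation tests of the 4 library shares gave no p under 0.33, the smallest they can give, and adjusted values of 1 throughout. The difference for Ina in Pax6 > Meis2 cells was -23.8 percentage points (exact permutation p = 0.33, both CKO libraries below both controls), and in Meis2 > Pax6 cells -10.0 points (exact permutation p = 0.67). Unthinned, the Ina difference in Pax6 > Meis2 cells was -7.66 points, and that of Nefl changed sign, from -12.6 to 4.34 points.

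Within a library the genes varied together from cell to cell to unequal degrees, given here as a description over 1334, 576, 1043 and 2259 Pax6 > Meis2 and 423, 1322, 430 and 222 Meis2 > Pax6 cells thinned to 2000 UMIs, whose cells share a library and its free RNA. Nefl and Nefm had correlations of 0.353, 0.414, 0.46 and 0.403 in Pax6 > Meis2 cells and 0.327, 0.388, 0.46 and 0.458 in Meis2 > Pax6 cells. Stmn2 and Gap43 had 0.491, 0.42, 0.586 and 0.593 in Pax6 > Meis2 cells but 0.0592, 0.0555, 0.126 and 0.177 in Meis2 > Pax6 cells, lower in each library. Tubb3 and Stmn2 had 0.417, 0.4, 0.476 and 0.446 and 0.128, 0.301, 0.403 and 0.345.

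The genes whose level followed each member most closely were ranked by Pearson's r of log2(CPM + 1) over 32 sums (4 libraries, 4 Malat1 bins and 2 sets), among 3914 genes with a mean of at least 50 CPM, leaving the 10 genes themselves out of the ranking. The sums share libraries, depth and Malat1 share, so r is a description. Nefl and Nefm followed each other (r = 0.98), and Ina had r = 0.86 with Nefl and 0.88 with Nefm. Outside the 10 genes, both were nearest to Dbn1, the actin-binding drebrin, Scrt1, a neuronal repressor, and the neuropeptide gene Adcyap1, with 0.88, 0.87 and 0.82 for Nefl. Ina was nearest to Dpysl3 (0.96), Cdk5r1 (0.95) and Tubb2a (0.94), and Mapt to Tubb2a (0.95), Map1b (0.94) and Dpysl3 (0.93). Tubb3 was nearest to Tuba1a (0.97), Tubb2b (0.96) and Mkrn1 (0.93), the first a tubulin that pairs with it. Dcx was nearest to Map2 (0.94), Trim67 (0.92) and Jph4 (0.91), with 0.91 for Mapt among the 10 genes. Crmp1 was nearest to Tubb4a (0.89), Fez1 (0.88) and Dpysl3 (0.87), with 0.89 for Tubb3 among the 10 genes, and Stmn2, with lower values, to Gng3 (0.76), Tagln3 (0.74) and Mllt11 (0.73). Gap43 was nearest to Neurod1 (0.86), Ldha (0.85) and Cplx2 (0.85), of which Neurod1 is a granule lineage transcription factor, and ran against Ina (-0.59) and Nefl (-0.40).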

How the data were processed

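Droplet 3′ libraries (10x Chromium, 3′ kit v3.1) were counted by the authors with Cell Ranger 5.0.0 on mm10, per the submitters' processing notes, and the deposited matrices hold whole UMI counts per gene and barcode, with no normalization per the file headers. Barcodes were filtered as the report states, UMI counts were summed per library and cell set, and sums were tested with edgeR 4.0.16 (R 4.3.3): TMM, filterByExpr, quasi-likelihood F test, Benjamini-Hochberg adjustment over all genes tested at 0.05, with the library as a block within libraries. DESeq2 1.42.0, RLE factors, no filter, intact cells, doublets removed by a simulated-neighbour score, cells thinned to 1000 UMIs, non-cycling cells, exclusive sets, other Malat1 limits and each library left out were alternatives. Tables and figures used Python 3.11.15 and pandas 2.3.3. The labels do not say that replicates came from separate litters or days, so p-values measure only the spread between these libraries, which may be technical. All 10 genes are named throughout. Of the related lists, up to 4 called genes a direction with the largest change and at least 10 CPM are named. Members and lists were chosen with earlier results of these data known. On simulated counts, edgeR recovered 76% of genes changed by 1 log2 unit in Meis2 > Pax6 cells (11822 genes) and 85% in Pax6 > Meis2 cells (13979 genes). These counts had a fixed spread between libraries that was not fitted to these data, and only genes with enough expected UMIs were changed. These shares therefore do not give the power of the CKO comparison here.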

Additional observations from a re-analysis of the deposited data

How the results depend on the processing

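The calls between Meis2 > Pax6 and Pax6 > Meis2 cells (8) numbered 8 or 9 in all alternatives run. The added call was Nefh without a low-count filter and Stmn2 in non-cycling cells. Counts of called genes that moved by over 1.5 times were these. Without a low-count filter, CKO against control gave 1 in all kept cells, 1 in Pax6 > Meis2 cells and 1 in the lowest Malat1 bin of Meis2 > Pax6 cells. With Malat1 limits within each library it gave 1 in the second bin. Leaving out 1 library at a time gave 0 to 2 in all kept cells, 0 to 5 in Olig2 cells, 0 to 1 in Tbr1 or Lmx1a cells, 0 to 1 in the lowest Malat1 bin and 0 to 4 for the difference of the CKO effect between sets, with a lone library assumed to vary like the others. Olig2 against Tbr1 or Lmx1a cells gave 3 in non-cycling cells and 2 under 4000 UMIs. The Malat1 contrast gave 5 in thinned Meis2 > Pax6 cells, 1 to 3 there when 1 library was left out, and 3 in Pax6 > Meis2 cells under 4000 UMIs. Its difference between sets gave 2 by DESeq2, 1 without doublets, 1 in thinned cells, 2 with Malat1 limits within each library and 0 to 1 with 1 library left out. The cause of these moves was not tested.

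What the replicate numbers mark is not given in the labels. Over genes, the deviations of same-numbered libraries from their group means correlated at -0.16 in Pax6 > Meis2 and -0.21 in Meis2 > Pax6 cells. With 2 libraries a group, these values cannot show whether same-numbered libraries were made together. The replicate block called 0 of the 9 genes for CKO against control in the 5 sets and 1 (Mapt) in the lowest Malat1 bin. A crossed pairing, added after seeing the data, called 0 of the 9 genes in the 5 sets.

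For CKO against control in Pax6 > Meis2 cells, log2 fold changes that changed sign were Stmn2 -0.22 and Gap43 -0.42 under 4000 UMIs. Leaving out 1 library at a time, they ranged from -1.20 to 0.77 for Nefl, from -1.14 to 0.48 for Nefm, from -0.90 to 0.20 for Tubb3 and from -0.50 to 0.058 for Crmp1. For CKO against control in Meis2 > Pax6 cells, log2 fold changes that changed sign were Nefl 0.009, Tubb3 -0.115 and Gap43 0.27 in intact cells, Nefl 0.021 and Nefm 0.040 without doublets, Nefm 0.024 and Tubb3 -0.12 thinned to 1000 UMIs, Nefl 0.13 and Nefm 0.145 in non-cycling cells, Nefl 0.074 and Nefm 0.029 with the replicate block and Nefl 0.049, Nefm 0.009, Tubb3 -0.32 and Stmn2 -0.12 under 4000 UMIs. Leaving out 1 library at a time, they ranged from -0.49 to 0.505 for Tubb3, from -0.59 to 0.83 for Nefl, from -0.49 to 0.62 for Nefm, from -0.76 to 0.18 for Ina and from -0.37 to 0.19 for Crmp1. Between Meis2 > Pax6 and Pax6 > Meis2 cells, log2 fold changes that changed sign were Stmn2 -0.049 without the filter, Stmn2 -0.33 in non-cycling cells and Stmn2 -0.020 without Olig2, Tbr1 or Lmx1a cells. Between Olig2 and Tbr1 or Lmx1a cells, log2 fold changes that changed sign were Tubb3 0.027 thinned to 1000 UMIs, Tubb3 0.13 in non-cycling cells and Ina 0.018 and Tubb3 0.23 under 4000 UMIs. Leaving out 1 library at a time, they ranged from -0.20 to 0.001 for Tubb3. Between Malat1 bins of Meis2 > Pax6 cells, log2 fold changes that changed sign were Mapt 0.26 thinned to 1000 UMIs. Leaving out 1 library at a time, they ranged from -0.12 to 0.42 for Nefm, from -0.063 to 0.21 for Ina and from -0.39 to 0.15 for Mapt. Between Malat1 bins of Pax6 > Meis2 cells, log2 fold changes that changed sign were Crmp1 0.042 with RLE factors, Crmp1 0.044 by DESeq2, Tubb3 0.15 and Crmp1 0.20 without the filter, Tubb3 0.080 and Crmp1 0.13 thinned to 1000 UMIs, Tubb3 0.275 and Crmp1 0.10 in non-cycling cells and Tubb3 0.37, Stmn2 -0.050 and Crmp1 0.38 under 4000 UMIs. Leaving out 1 library at a time, they ranged from -0.115 to 0.091 for Tubb3 and from -0.115 to 0.18 for Crmp1. None of the log2 fold changes in this paragraph passed edgeR's test except those of Stmn2 in non-cycling cells and, between Malat1 bins of Pax6 > Meis2 cells, Tubb3 under 4000 UMIs.

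Unthinned, the differences in share of cells turned to 4.34 points for Nefl and 4.64 for Nefm in Pax6 > Meis2 cells, and 3.83 and 5.08 in Meis2 > Pax6 cells. With 1 library left out, thinned Nefl ranged from -27.9 to 2.82 points in Pax6 > Meis2 and -17.9 to 14.3 in Meis2 > Pax6 cells, and Nefm from -12.4 to 6.13 in the latter. Intact cells (at least 4000 UMIs, at most 5% mitochondrial) were not run for the Malat1 bins, nor non-cycling cells for the lowest bin of Meis2 > Pax6 cells, nor cells under 4000 UMIs for its 2 lowest bins, because fewer than 20 cells were left in a library. Nefh had 6 to 8 UMIs a library and was not tested in the main fits. Without a low-count filter edgeR called it between Meis2 > Pax6 and Pax6 > Meis2 cells (log2 2.37, adjusted p = 0.0416, SE 0.95), on these few UMIs.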
